A study of Drosophila melanogaster with 3 samples.

Results

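ORC2 sites on chromosome arm 3R of Drosophila melanogaster were described by their position, spacing and width. The origin recognition complex (ORC) is the protein complex that binds DNA before S phase and, with Cdc6 and Cdt1, loads the MCM helicase from which replication forks later start. Drosophila ORC shows little preference for a DNA sequence, and it is known to sit on accessible chromatin, often near the start sites of active genes. Stretches with many ORC sites are known in this species to replicate earlier in S phase, on average, than stretches with few. These statements are background from other work and were not measured here.

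ORC2, a subunit of the complex, was immunoprecipitated from crosslinked chromatin of asynchronous cultures of Kc167, a female cell line derived from late embryos with the genotype se/e, using a rabbit polyclonal antibody raised against the whole protein. The labels describe 2 ORC2 ChIP samples from separate extractions and 1 input DNA sample, and the input was not analysed here. No treatment or contrast between conditions was made, so the comparisons are between positions on the arm and between the replicates. With 2 ChIP samples of 1 group no test across samples was possible, and sites on 1 arm are not replicates, so the values below carry no p-values.

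The sites were taken from the authors' list that joins both replicates, by arm (3R) and by a start at or above 2000000 in FlyBase release 5 coordinates, which leaves out the end of the arm next to the centromere. This gave 1059 of the 5159 joined sites (20.5%). The replicate lists held 1762 of 8970 peaks (replicate 1) and 1337 of 6593 peaks (replicate 2) in the same interval. The interval was taken to end at 27894138, the largest peak end on the arm, and was 25.9 Mb long. The threshold fell in a gap between sites. The last site outside it lay at 1996583 to 1996716 with scores of 3.69 in replicate 1 and 4.07 in replicate 2, and the first site inside it lay at 2171576 to 2171690 with scores of 3.92 and 4.77. The free interval of 174859 bp between them is not counted below.

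Every site took the outer limits of its replicate peaks, and 1023 of the 1059 joined a single peak of each replicate. In 31 sites 1 replicate 1 peak spanned several replicate 2 peaks, and in 5 sites more than 1 replicate 1 peak was joined. The score is the authors' own PeakSeq value without a stated unit, and it is used here only to describe and rank peaks on this arm. The genes around the sites and their sequences were not analysed here, because no genome or annotation of release 5 was used. Read depth is unknown for these lists, so the intervals given cover counting error of peaks only.

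The replicates served as the check on the joined list. A replicate 2 peak lay over 1064 of the 1762 replicate 1 peaks on 3R (60.4%, with an exact 95% interval of 58.1 to 62.7%), against 57.8% over the whole replicate 1 list. In replicate 2, 1093 of 1337 peaks (81.8%, 79.6 to 83.8%) had a replicate 1 counterpart, against 80.5% over the whole list. The share of the series lay just below the interval on 3R in replicate 1 and inside it in replicate 2.

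At the 1023 sites with 1 peak from each replicate, the score of replicate 2 was a median of 1.015 times that of replicate 1, with a 5th to 95th percentile range of 0.720 to 1.496. The ratio lay between 0.5 and 2 at 1019 of these sites. Spearman's rho between the replicate scores was 0.763 over these 1023 sites, which share the arm and possibly the control library. Midpoints of the paired peaks differed by a median of 18.5 bp, and 90% of them lay within 89.1 bp of each other. The replicate 2 peak was narrower at 80.0% of the sites, with a median width ratio of 0.762. Pairing requires overlap, which limits how far midpoints can differ.

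Sites on 3R were short and covered little of the arm. The median width was 190 bp (interquartile range 125 to 322.5 bp) in the joined list, and it was 128 bp over all replicate 1 peaks and 103 bp over all replicate 2 peaks of the interval. The bases covered in both replicates had a median of 114 bp per site. Widths ran from 21 to 1825 bp, 16 sites were over 1 kb wide and 15 were under 50 bp. Together the sites covered 272.6 kb, or 1.05% of the interval. Scores had a median of 2.87 (interquartile range 2.35 to 3.55) and ran from 1.40 to 14.0.

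Sites were spread along the whole arm, but unevenly. The density was 40.9 sites per Mb (exact Poisson 95% interval 38.5 to 43.4), and it was 68.0 peaks per Mb in replicate 1 and 51.6 in replicate 2. Across 25 full blocks of 1 Mb, a block held 41.2 ± 13.7 sites (SD over blocks), from 23 to 70. Replicate 1 had 68.2 ± 18.6 peaks per block and replicate 2 had 52.2 ± 15.7. Spearman's rho between the block counts of the replicates was 0.920 over the 25 blocks.

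The fullest block lay at 12 to 13 Mb and held 70 sites, with 94 replicate 1 peaks and 84 replicate 2 peaks. The block at 5 to 6 Mb followed with 64 sites and 98 and 76 replicate peaks. The block at 19 to 20 Mb held 62 sites and 96 and 71 replicate peaks. The block at 17 to 18 Mb was next with 61 sites, and it was the fullest block of replicate 1, with 105 peaks, and ranked 2 in replicate 2, with 78. These 4 blocks were also the fullest 4 in each replicate. Every joined site holds a peak of each replicate, so joined and replicate counts are tied by construction and their likeness is no independent check.

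The emptiest blocks lay in more than 1 part of the arm. The block at 23 to 24 Mb held 23 sites, with 37 replicate 1 peaks and 32 replicate 2 peaks. Its neighbour at 22 to 23 Mb held 24 sites, with 44 and 29 replicate peaks. The block at 8 to 9 Mb also held 24 sites, with 50 and 33 replicate peaks, and the blocks at 6 to 7 Mb and 24 to 25 Mb followed with 25 and 26 sites. From 22 to 25 Mb there were 73 sites, or 24.3 per Mb (19.1 to 30.6), while the 3 Mb from 17 to 20 Mb held 161 sites, or 53.7 per Mb. These stretches were picked by their counts, so the contrast between them is a description.

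**Figure D1:**
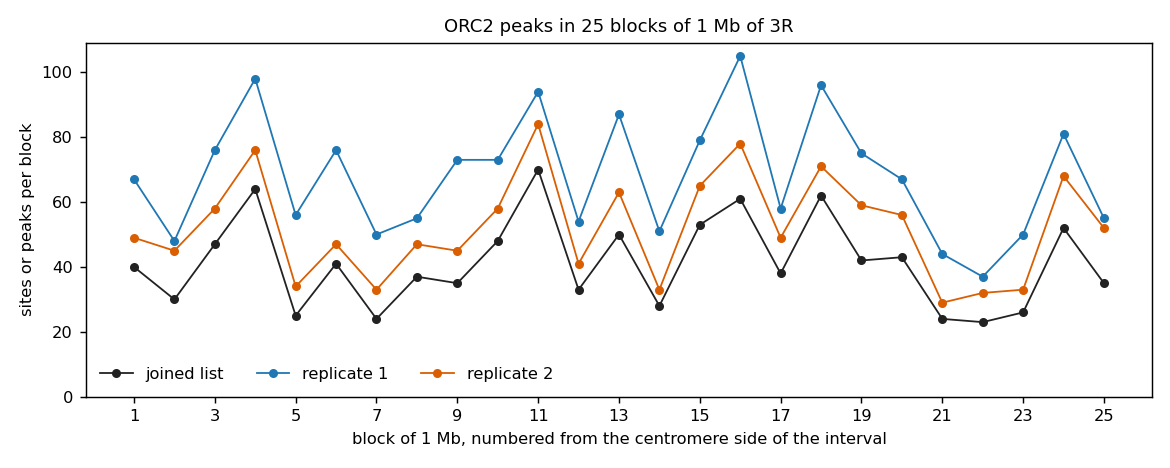
Number of ORC2 sites (joined list, black) and peaks (replicate 1, blue; replicate 2, orange) in each of 25 blocks of 1 Mb of 3R, on a linear axis from 0. The lists rise and fall together, from 23 to 70 sites per block in the joined list, with 3 neighbouring low blocks (numbers 21 to 23) near the far end. Every joined site holds a peak of each replicate, so the joined counts are not independent of the replicate counts.

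In segments of 5 Mb the order was the same in both replicates. The segment at 17 to 22 Mb was the fullest, with 49.2 sites per Mb (43.2 to 55.7), 80.2 replicate 1 peaks per Mb and 62.6 replicate 2 peaks per Mb. The segment at 22 to 27 Mb was the emptiest, with 32.0 sites per Mb (27.2 to 37.4), 53.4 replicate 1 peaks and 42.8 replicate 2 peaks per Mb. The other segments held 41.2 sites per Mb at 2 to 7 Mb, 37.0 at 7 to 12 Mb and 46.8 at 12 to 17 Mb. Median width varied between 173.5 bp at 2 to 7 Mb and 213 bp at 12 to 17 Mb. The median score was 3.14 at 2 to 7 Mb and between 2.81 and 2.86 in each of the other segments. The first segment was also the highest in score in both replicates, at 2.74 in replicate 1 (2.45 to 2.61 elsewhere) and 3.03 in replicate 2 (2.58 to 2.73 elsewhere).

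Windows of 100 kb showed where the sites piled up. Of 258 full windows, 15 (5.81%, 3.29 to 9.41%) were dense, defined as holding 10 or more sites, against 8.84% of such windows over all the large arms and chromosome 4. Windows without a site numbered 29 (11.2%, 7.66 to 15.7%), against 13.8% over the same chromosomes. Both intervals include the share of the series. The shares over the large arms and chromosome 4, here and below, include 3R itself and the 2 Mb next to the centromeres. The 15 dense windows held 196 sites (18.5%), and the fullest 61 windows (23.6% of them) were enough to hold 50% of the sites. Of the 29 empty windows, 15 held no peak of either replicate. With 10 or more peaks as the rule, 59 windows were dense in replicate 1 alone and 35 in replicate 2 alone, and 3 remained dense in the joined list when sites under 1 kb apart counted as 1.

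The dense windows were scattered, and only at 19 to 19.2 Mb did a pair of them adjoin. They started at 4.8, 5.3, 5.9, 7, 11.1, 12, 14.2, 16.6, 17.4, 19, 19.8, 21.8, 25.5 and 25.8 Mb. The windows at 12 and 17.4 Mb stood apart with 27 and 26 sites, 6.60 and 6.35 times the mean of 4.09 per window. The next fullest, at 14.2 and 19.1 Mb, held 13 each and the one at 5.3 Mb held 12.

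**Figure D2:**
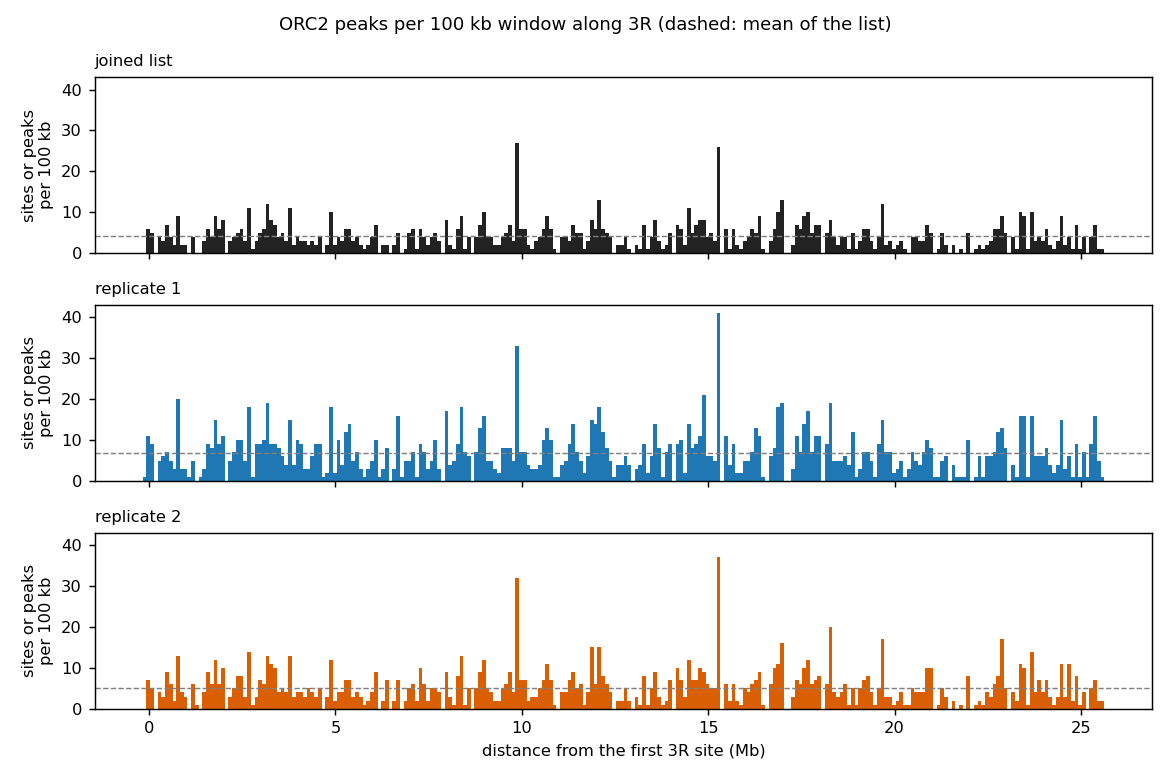
ORC2 sites or peaks per 100 kb window along 3R in the joined list (black), replicate 1 (blue) and replicate 2 (orange), against the distance from the first site in Mb; the dashed line is the mean of each list. A pair of windows stands above the others in each list, with 27 and 26 joined sites, 33 and 41 replicate 1 peaks and 32 and 37 replicate 2 peaks. The joined counts are not independent of the replicate counts, since every joined site holds a peak of each replicate.

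The window at 12 Mb held many more sites than its neighbours. Its 27 sites lay between 12006324 and 12086876, while the windows before and after it held 3 and 6. Free intervals of 22280 and 19227 bp flanked these 27 sites, shorter than the arm's mean distance of 24235 bp between neighbouring midpoints. Replicate 1 had 33 peaks in this window, against 5 and 7 in the windows on either side, and replicate 2 had 32, against 4 and 7. The sites were wide, with a median of 482 bp, and 19 of the 27 were over 300 bp, so that together they covered 14.9 kb. Their scores were modest, from 1.61 to 4.45 with a median of 2.55.

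Within this window 2 runs held all but the first 2 sites. The first ran from 12028632 to 12038105 and had 7 sites in 9.47 kb, of which 32.4% was covered. The other ran from 12047222 to 12086876 and had 18 sites in 39.7 kb, of which 28.0% was covered, with 22 peaks in each replicate. The free stretch between them was 9.12 kb long. The core of the longer run was a row of 4 sites between 12059900 and 12063163, separated by 299, 279 and 217 free bases. The highest score of the run belonged to the last of these, at 12062725 to 12063163, with 4.59 in replicate 1 and 4.31 in replicate 2. Near its far end lay a pair of sites that were among the widest on the arm, at 12075118 to 12076607 (1490 bp) and 12079737 to 12081251 (1515 bp). Replicate 1 called each as 1 peak, of 1428 and 1515 bp, whereas replicate 2 called 3 and 2 peaks there.

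The window at 17.4 Mb was bounded on 1 side by an empty stretch. Its 26 sites lay between 17405257 and 17497518, the window before it held 3 sites, and the window after it held no site and no peak of either replicate. The site-free interval that followed the last site was 150812 bp long and held 1 replicate 1 peak and no replicate 2 peak. The median width was 352.5 bp, and 14 of the 26 sites were over 300 bp. Scores ran from 1.79 to 5.10.

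This window also held 2 runs, beside sites in neither, and the runs differed in width and score. The run from 17405257 to 17418230 had 7 sites with a median width of 687 bp and a median score of 2.35, none above 2.83. The run from 17472911 to 17486784 had 9 sites with a median width of 227 bp and a median score of 3.12, up to 5.10. That highest site, at 17482298 to 17482525, had 5.80 in replicate 1 and 4.40 in replicate 2. Some replicate 2 peaks here were only a few bases long. The site at 17472911 to 17473107 joined a 197 bp peak of replicate 1 and a 6 bp peak of replicate 2, and the site at 17407033 to 17407315 joined peaks of 283 and 9 bp.

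Runs of this kind were rare on the arm. A chain was defined as 5 or more sites with under 5 kb free between each and the next. There were 15 chains with 102 sites (9.63%, 7.92 to 11.6%), against 13.0% of joined sites over the large arms and chromosome 4. Sites enter chains in groups, up to 18 at once, so this interval is too narrow to set against the 13.0%. With the same rule the share was 28.3% in replicate 1 alone and 18.1% in replicate 2 alone, and it was 2.17% for gaps under 2 kb and 26.4% for gaps under 10 kb. The chains spanned 5.57 to 39.7 kb. Those with the most sites were the runs of 18, 9, 7 and 7 sites in the windows at 12 and 17.4 Mb, followed by a run of 7 sites at 26620467 to 26634456 with a median width of 319 bp and a median score of 2.15.

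Sites in chains were wider than the others. The median width was 251 bp in chains and 186 bp outside them, and this held in replicate 1 (239.5 and 176 bp) and replicate 2 (160 and 122 bp). The median score was 2.72 in chains and 2.90 outside them, with 2.71 and 2.88 in replicate 1 and 2.60 and 2.92 in replicate 2. The chains were not uniform, since 9 of 15 had a median width above that of the arm and 8 of 15 a median score below it. The runs of 18, 9, 7 and 7 sites in the windows at 12 and 17.4 Mb were among these 9 wider chains. Their median widths were 502.5, 227, 481 and 687 bp. The other chains had median widths from 136 to 590 bp, on both sides of the arm's 190 bp, so the greater width was not general to chains.

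**Figure D3:**
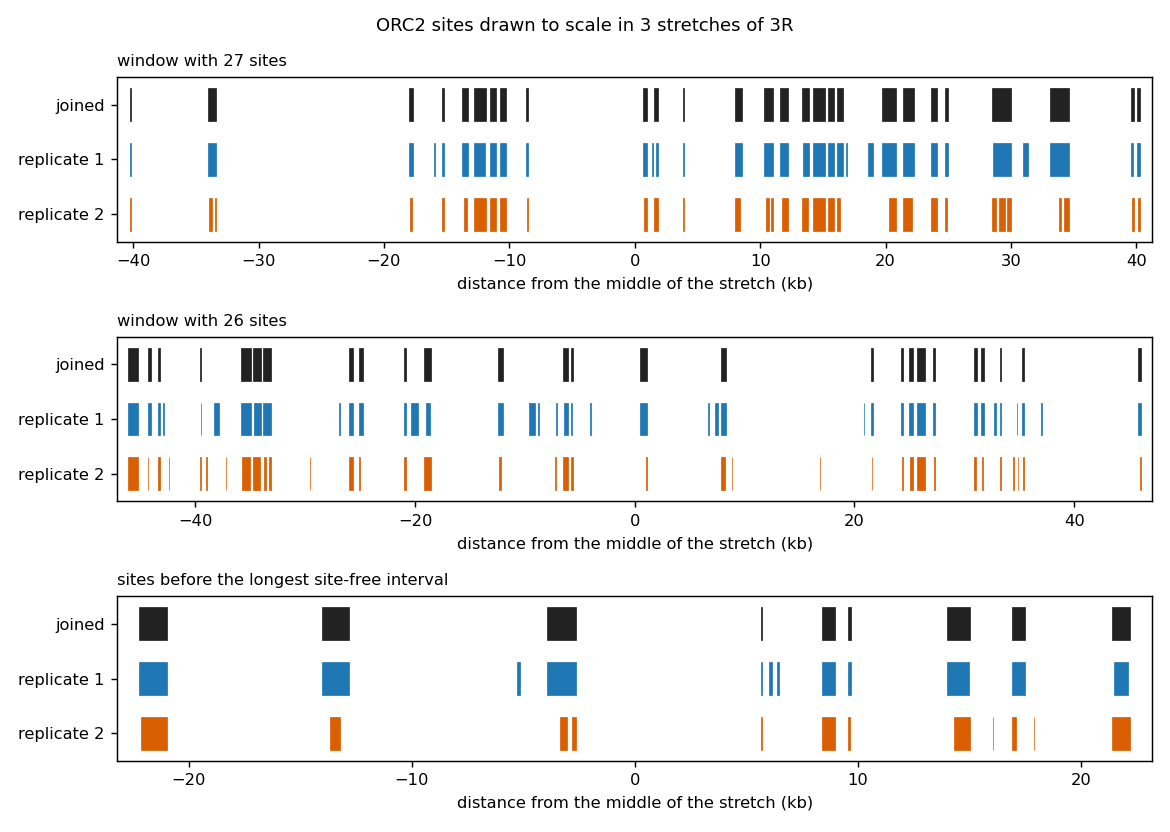
ORC2 sites (joined list, black) and all peaks of replicate 1 (blue) and replicate 2 (orange) drawn to scale in 3 stretches of 3R, against the distance in kb from the middle of each stretch. The upper panels show the windows with 27 and 26 sites, and the lower panel shows 9 sites, 4 of them over 1 kb wide, that end at the edge of the longest site-free interval.

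Long site-free intervals took up a large part of the arm. Of the 1058 intervals between neighbouring sites, 55 (5.20%, 3.94 to 6.71%) were 100 kb or longer, against 5.04% over the large arms and chromosome 4. They summed to 8.46 Mb, or 32.7% of the interval studied. They were not free of peaks in the single replicates, which had 106 (replicate 1) and 36 (replicate 2) peaks in them, and 5 of the 55 held no peak of either. These peaks had median widths of 58 and 25.5 bp. Their density was 12.5 per Mb in replicate 1 and 4.26 per Mb in replicate 2, whereas peaks found in 1 replicate alone reached 33.9 and 11.9 per Mb on the rest of the arm. Peaks without a counterpart were thus also sparser where joined sites were missing. Of all unshared peaks of the interval, 33.5% in replicate 1 and 34.0% in replicate 2 lay within 1 kb of a joined site. Such positions make up very little of a site-free interval of 100 kb or more, which by itself lowers the density there. The densities were not compared without these peaks.

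The longest site-free interval ran from 23114755 to 23384808 (270 kb) and held 4 replicate 1 peaks and 3 replicate 2 peaks. The next were 18619972 to 18878444 (258 kb), with 2 and 1 peaks, and 19182377 to 19427436 (245 kb), also with 2 and 1. The third of these began where the dense pair of windows at 19 to 19.2 Mb ended. An interval of 239.8 kb followed at 23912012 to 24151843, with 2 and 1 peaks. At 6719393 to 6953918, 234.5 kb held 2 replicate 1 peaks and no replicate 2 peak, and at 3375002 to 3609153, 234.2 kb held 1 peak of each.

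The remaining 4 of the 10 longest were 23532824 to 23763533 (230.7 kb), 8545776 to 8775099 (229 kb), 16153831 to 16372506 (218.7 kb) and 8890246 to 9085937 (195.7 kb). They held 1, 0, 3 and 2 replicate 1 peaks and 0, 1, 4 and 1 replicate 2 peaks. Of the 10, 3 lay in the sparse stretch from 22 to 25 Mb. Singled out after the values were seen, the longest stretch without a peak in either replicate was 8548304 to 8775099 (226.8 kb), and 32 such stretches were 100 kb or longer.

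The longest site-free interval was preceded by a stretch of wide sites with low scores. The 9 sites between 23070332 and 23114754 lay within 44.4 kb, and 4 of them were over 1 kb wide. No rule on spacing set the start of this stretch. The free interval before its first site was 5430 bp, shorter than the longest inside it, 8902 bp. The 100 kb window in which it begins held 7 sites with a median width of 218 bp, so narrower sites lay just before it. Of these 9, 5 scored under 2, as did 107 of all 1059 sites (10.1%). The lowest score of any site on the arm was in this stretch, at 23100924 to 23101524, with 1.37 in replicate 1 and 1.42 in replicate 2. Its neighbours were not all weak, since the 48 bp site at 23098191 to 23098238 had 3.24 and 3.57. The last 6 of these sites formed a chain. Only 2 of the 15 chains bordered a free interval of 100 kb or more, or 2 of 30 flanks (6.67%), beside 5.20% of all intervals. A chain flank is 5 kb or longer by definition, whereas all intervals include shorter ones, so these shares are of unlike sets. The other of the 2 chains was that at 16372507 to 16378076, which began at the end of the interval of 218.7 kb.

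Neighbouring sites were unevenly spaced, from 289 to 270542 bp between midpoints. The median distance between neighbouring midpoints was 9174 bp (interquartile range 2474 to 30272 bp), while the mean was 24235 bp. Of the 1058 distances, 146 were under 1 kb, 254 (24.0%) were 1 to 5 kb, 153 (14.5%) were 5 to 10 kb, 364 (34.4%) were 10 to 50 kb, 85 (8.03%) were 50 to 100 kb and 56 (5.29%) were longer. The median distance to the nearest neighbour on either side was 3559 bp. In replicate 1 it was 1357 bp and in replicate 2 it was 2241 bp.

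Short distances had a maximum of their own. In steps of 100 bp, the fullest step of the joined list was 500 to 600 bp, with 34 pairs. There were 66 pairs 500 to 700 bp apart, 36 pairs 700 to 900 bp apart and 31 pairs 900 to 1100 bp apart, while 26 were closer than 500 bp. The fullest step was also 500 to 600 bp in replicate 1, with 86 pairs, and in replicate 2, with 51. On 2L and X the fullest step of the joined list was the same, with 31 and 44 pairs, and on 3L it was 400 to 500 bp, with 24.

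Such pairs were found all along 3R. The 66 pairs lay in 54 different windows of 100 kb, and 10 of the 66 were inside chains. A median of 364.5 free bases separated them, and no neighbouring sites had fewer than 163 free bases between them. The midpoints of 2 peaks cannot lie closer than their widths allow, and the sources used here do not give how the peak caller joins or splits neighbouring enrichment. Its part in this spacing was not tested.

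**Figure D4:**
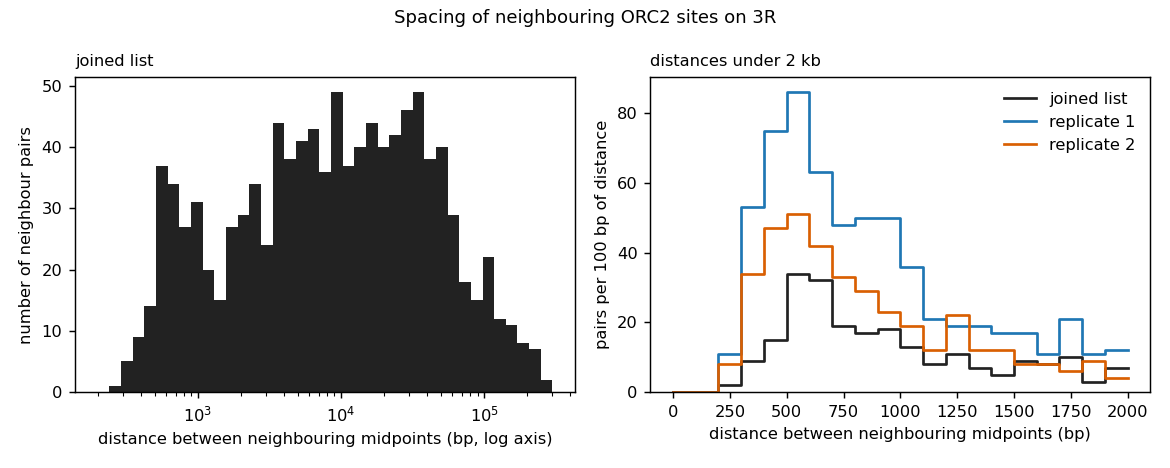
Left, number of neighbouring pairs of joined 3R sites by the distance between their midpoints, on a log axis. Right, pairs per 100 bp of distance under 2 kb in the joined list (black), replicate 1 (blue) and replicate 2 (orange), each of which is highest at 500 to 600 bp.

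The highest scores on the arm belonged to narrow sites. The 10 highest were 77 to 218 bp wide, 9 of them were narrower than the median site. None lay in a chain, but only 9.63% of all sites did. Their nearest neighbour was farther away than the arm's median in 7 of 10 cases. Above a score of 5 there were 70 sites, with a median width of 133.5 bp and a median nearest-neighbour distance of 7366 bp, and 3 of them (4.29%, 0.893 to 12.02%) lay in chains, an interval that includes the 9.63% of all sites.

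A pair of these sites stood well above the rest. The site at 12323226 to 12323302 had scores of 11.95 in replicate 1 and 16.0 in replicate 2, and the site at 15316847 to 15316990 had 11.2 and 15.0. Both were isolated, with their nearest neighbours 27.9 and 27.6 kb away, and free stretches of 76.4 and 128.8 kb on their far sides. The site that followed, at 11263889 to 11263977, had 6.13 and 9.92 and was also 27.6 kb from its neighbour. Between the second and the following site the score of the joined list fell from 13.1 to 8.02, a larger step than any lower in the list of 10.

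Some of the other high sites had close company or bordered an empty stretch. The site at 18354268 to 18354485, with scores of 6.05 and 9.32, lay 465 bp from a neighbour. The site at 16981646 to 16981756, with 6.07 and 7.67, lay 380.5 bp from one. At 24171117 to 24171258 the scores were 7.95 and 6.17, and the 194.6 kb that followed this site held no peak of either replicate. It was the only one of the 10 with a lower score in replicate 2.

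The other 4 were alike in size. The site at 27436713 to 27436813 had scores of 5.98 and 8.31 and that at 10720204 to 10720335 had 5.62 and 8.61. The site at 17010576 to 17010726 had 6.67 and 7.54, and that at 23477550 to 23477688 had 6.51 and 7.23. Replicate 2 gave the higher score at 9 of the 10 sites and at 52 of the 70 sites above 5, against 52.3% of all sites.

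The widest sites scored low. Of the 16 sites over 1 kb, 14 were below the median score of the arm, and their scores ran from 1.56 to 3.16 with a median of 2.26. All 16 were wider in replicate 1 than in replicate 2, as were 80.0% of the 1023 sites with 1 peak of each replicate. Where a replicate had several peaks in a site, their widths were summed without the gaps between them. The widest, 1825 bp at 14069215 to 14071039, was 1 peak of 1796 bp in replicate 1 (score 2.60) and 3 peaks of 992 bp in all in replicate 2 (mean score 2.36). The site at 21831240 to 21832965 was 1726 bp wide in replicate 1 and 949 bp in replicate 2, and that at 13526461 to 13528146 was 1686 and 802 bp wide. The last of these was the highest-scoring of the 10 widest, with 3.30 and 3.02.

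The remaining wide sites included the pair in the window at 12 Mb and 3 of the sites that precede the longest site-free interval. These 3 were 1236, 1197 and 1284 bp wide in replicate 1 and 1170, 461 and 526 bp in replicate 2. The site at 19151460 to 19152864, in the dense pair of windows at 19 to 19.2 Mb, was 1405 and 886 bp wide. The site at 4880068 to 4881329, in the dense window at 4.8 Mb, was 1262 and 592 bp wide. Of the 10 widest sites, 2 lay in chains, and of all 16 sites over 1 kb, 4 did, against 9.63% of all sites. These counts are small, and the difference was not tested.

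Across all sites width and score were only weakly related. Spearman's rho was -0.15 over the 1059 joined sites, and it was -0.06 and 0.02 when the widths and scores of replicate 1 or replicate 2 were used at the same sites. Over all peaks of the interval, including those without a counterpart, it was 0.149 in replicate 1 and 0.145 in replicate 2. The narrowest 25% of sites had a median score of 2.98 and the widest 25% one of 2.72. In replicate 1 these medians were 2.84 and 2.71, and in replicate 2 they were 3.12 and 2.65. Scores of 5 or more were held by 29 of the 268 narrowest and 3 of the 265 widest sites.

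**Figure D5:**
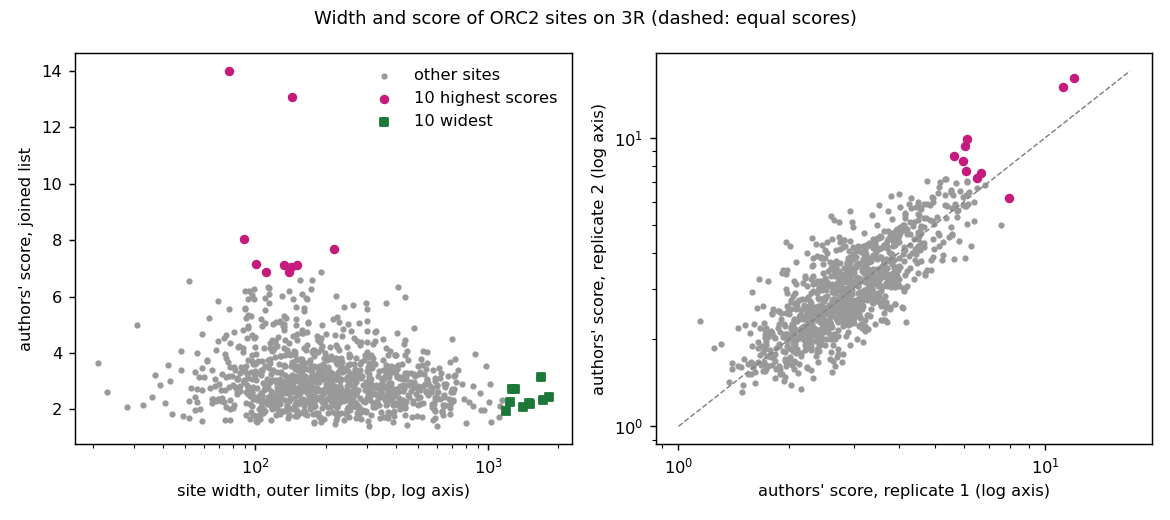
Left, score against width (log axis) for the 1059 joined sites on 3R, with the 10 highest scores in pink and the 10 widest sites as green squares. Right, replicate 2 against replicate 1 score (log axes) at sites with 1 peak of each replicate, where 9 of the 10 highest sites lie above the dashed line of equal scores.

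Wide sites also lay closer together. The median nearest-neighbour distance was 4135 bp for the narrowest 25% and 2418 bp for the widest 25%. Seen from the spacing, the 280 sites with a neighbour under 1 kb away had a median width of 215.5 bp, and the 25 sites whose neighbours were all 50 kb or more away had 137 bp. In replicate 1 these medians were 207 and 137 bp, and in replicate 2 they were 134.5 and 116 bp. Scores differed little, at 2.85 and 2.89.

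The most isolated site, at 23911866 to 23912011, lay 137.5 kb from its nearest neighbour and had scores of 2.30 and 1.84. The next, at 7947006 to 7947196, was 100.1 kb from its neighbour and had 6.84 and 6.88. The site at 15980509 to 15980700 was 97.8 kb from its neighbour and had 4.09 and 4.999. These 3 were named after their distances were seen, and their scores differed widely.

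Peaks without a counterpart were narrow and low. In replicate 1 the 698 unshared peaks had a median width of 66 bp and a median score of 2.11, and the shared ones had 179 bp and 2.86. In replicate 2 the 244 unshared peaks had 35.5 bp and 2.09, and the shared ones had 121 bp and 2.87. Peaks under 10 bp numbered 83 of the 698 and 41 of the 244, but only 3 of 1064 and 26 of 1093 among shared peaks. A wider peak is more easily overlapped, so the rule that defines sharing adds to the width difference.

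A few unshared peaks scored high. In replicate 1 the peak at 25960425 to 25960435 had a score of 10.8, which ranked 3 in that list on the arm, over only 11 bp, and it lay 219 bp from a joined site. The peak at 17212019 to 17212048 had 8.47 over 30 bp and that at 7094889 to 7094977 had 7.97 over 89 bp. The peaks at 20382766 to 20382830 and 4468147 to 4468228 had 7.81 and 7.24. In replicate 2 the highest unshared score was 6.65, at 8538090 to 8538101, and it ranked 20 in its list. The others, at 2645097 to 2645147, 9790330 to 9790395, 26353620 to 26353632 and 26959912 to 26959989, scored 5.42 to 5.89. The replicate 1 peaks named ranked between 3 and 9 in their list, so that list held single-replicate peaks among its highest scores and the replicate 2 list did not.

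Values of other arms are set beside those of 3R, with the 2 Mb next to the centromere left out of each, and without a test of the differences. The density of joined sites was 38.5 per Mb (35.9 to 41.3) on 2L, 40.3 (37.8 to 43.1) on 3L and 53.0 (49.9 to 56.3) on X, and the interval of 3R overlapped those of 2L and 3L but not that of X. The median width was 197 bp on 2L, 181 bp on 3L and 194 bp on X. The share of sites in chains was 13.4% on 2L, 10.1% on 3L and 21.2% on X. The fullest windows of 2L, 3L and X held 19, 20 and 20 sites and their second fullest 16 each, compared with 27 and 26 on 3R. Arm 2R was not part of this comparison. The longest site-free intervals were 371.6, 332 and 283 kb, compared with 270 kb on 3R. The longest chain of 3L had 19 sites, 1 more than that of 3R.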

How the data were processed

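ORC2 ChIP-seq was analysed in 2 samples of Kc167 cells. The authors deposited 1 peak list per replicate and 1 that joins them, with coordinates on FlyBase release 5 and a peak score from PeakSeq, per the file headers and the source column. The deposited score has no stated unit, and the sources used here give no aligner, threshold or read depth. In the joined list it was the mean over all replicate peaks of a site, each counted once, at 1054 of 1059 sites (tolerance 0.0001). Where a site joined several peaks of 1 replicate, that replicate therefore weighed more. Coordinates count from 1 with both ends included. Peaks were called shared when they overlapped by at least 1 bp. Windows of 100 kb and blocks of 1 Mb follow a grid from position 1, full ones only, and sites were assigned by midpoint. Intervals on shares are exact (Clopper-Pearson) and those on densities exact Poisson, both at 95%. The Poisson intervals take sites as independent, and because sites lie in clusters the density intervals of arms and segments are too narrow. Most sites and stretches were named by rules on score, width, window count, chain size and interval length. The stretch before the longest site-free interval was not set by such a rule. The members, lists and rules were chosen with earlier results of these data known. No shuffle or resampling was used. Genes were not placed, because the only gene table is on release 6. Tools were Python 3.11.15, scipy 1.17.1, numpy 2.4.6, matplotlib 3.10.9 and pandas 2.3.3, and the functions were tested on 20 simulated lists.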

Additional observations from a re-analysis of the deposited data

How the results depend on the processing

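The share of replicate 1 peaks on 3R with a counterpart was 40.9% with 50% reciprocal overlap and 67.7% with midpoints within 500 bp, and that of replicate 2 was 53.9% and 86.8%. With both lists limited to peaks at or above their median score, the share was 59.1% in replicate 1 and 78.8% in replicate 2. Against the full other list, chosen after seeing the data, it was 77.4% and 90.3%. Density was 33.9 sites per Mb when sites under 1 kb apart counted as 1, 25.1 with 5 kb, and 20.5 for sites at or above the median score, which keeps 50% of them by construction. Without replicate 1 or replicate 2 it ranged from 51.6 to 68.0. The nearest-neighbour distance was 6486.5 bp with sites under 1 kb apart counted as 1, 9183.5 bp at or above the median score, and 1357 to 2241 bp with 1 replicate left out. The median width was 114 bp for bases covered in both replicates, and 121 to 179 bp for the shared peaks with 1 replicate left out.

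The number of dense windows was 17 with the grid moved by 50 kb, 3 when sites under 1 kb apart counted as 1, 0 for sites at or above the median score, and 35 to 59 with 1 replicate left out. The windows at 12 and 17.4 Mb kept 16 sites each under the 1 kb rule, and the other was the one at 19.1 Mb with 10. At or above the median score they held 7 and 8 sites, and the window at 5.3 Mb held 9. Site-free intervals of 100 kb or more numbered 32 when they had to be free of any peak, 78 for sites at or above the median score, and 37 to 45 with 1 replicate left out. The share of sites in chains was 2.17% with gaps under 2 kb, 26.4% with gaps under 10 kb, and 18.1 to 28.3% with 1 replicate left out. The variance to mean ratio of window counts was 3.04 in windows of 100 kb, 2.42 in windows of 50 kb, 3.32 in windows of 200 kb, and 4.13 to 4.49 with 1 replicate left out. The lists of single replicates hold more peaks, and the cause of the other shifts was not tested. No paired analysis was possible because both ChIP samples belong to 1 group and no result comes from a test. Read depth is unknown, so positions without a site may hold ORC2 below the calling threshold.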

Other observations

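Scores on 3R took repeated values. In replicate 1, 784 of 1762 peaks (44.5%) had a score held by at least 1 other peak of the arm, and in replicate 2 this was 554 of 1337 (41.4%). The most common score of replicate 1 was 2.99, at 16 peaks, followed by 4.48 and 1.49 at 10 peaks each, and the first and second of these were 2 and 3 times the last. In replicate 2 the most common were 2.56 at 18 peaks and 3.41 at 16, followed by 4.26 and 1.71 at 9 each, which stood at 1.5, 2 and 2.5 times the lowest. These values were noticed after the data were seen, and the sources used here do not give what sets them.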
